A study of Homo sapiens with 8 samples.

Results

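The baseline messenger RNA content of DND41 cells was described in the 2 of 8 samples of the series whose titles name a control short hairpin RNA (shRNA), here control A and control C after the letters in those titles. DND41 is an established line from a human leukemia of immature T cells, T-cell acute lymphoblastic leukemia (T-ALL), and is known to carry an activating NOTCH1 mutation. The cells grew in RPMI medium with 10% FBS, and doxycycline was given for 72 h to switch on the control shRNA, which the labels describe no further. Every level is therefore one of hairpin-bearing, doxycycline-treated cells and not of untreated ones. The same doxycycline treatment was given in the 6 SIRT1 shRNA samples, whose values were not used below. They stand in the same set of normalized counts, and whether they entered its normalization or filtering is not stated. No control B was analysed here. The sample titled sh3-C has a description that names the control shRNA, and it was kept out because both its title and its genotype are those of a SIRT1 sample. The labels report plating in triplicate and do not say that controls A and C came from separate infections, so that the spread between them may be technical. The cells are a leukemia line in culture and not primary thymus, and the RNA was taken from bulk cells, in which fewer cells that express a gene and less RNA per cell cannot be told apart.

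T cells develop in the thymus through ordered stages. Early progenitors carry stem cell and myeloid genes, cortical thymocytes carry CD1 surface proteins and the RAG recombinase while they rearrange their T-cell receptor genes, and mature thymocytes gain receptors for leaving the thymus. T-ALL cells keep much of the program of the stage at which they were arrested, and T-ALL is classified by this stage and by the transcription factor that is expressed out of place, such as TLX3, TLX1, TAL1, LYL1 or a HOXA gene. NOTCH1, a cell surface receptor cut by gamma-secretase to release an intracellular transcription factor, drives T lineage commitment and is mutated in many T-ALL cases.

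The deposited values are normalized counts per gene, which summed to 33586410 in control A and 34072666 in control C. Normalized counts grow with transcript length, so genes were compared with each other on a length-scaled level, which is the normalized count per kilobase of the gene's transcript, scaled to 1000000 in each sample and averaged over both. The level was ranked over the 18063 genes with an annotated length, and 15538 of these were protein coding. The top 10% of genes began at a level of 103, the top 25% at 39.1 and the median was 8.19. Of protein-coding genes 11.5% lay in this top 10%, 28.7% in this top 25% and 17.3% under a floor of 10 normalized counts in the mean of both samples, and these shares are the background for each gene group below. The groups rest on the 406 of 484 listed symbols found in the table, and the other symbols were not analysed here. Controls A and C ordered the genes nearly alike, with a Spearman coefficient of 0.9875 across genes, which are not independent replicates. Of 10623 genes with a mean of at least 100 normalized counts, 17 differed at least 2-fold between the samples. Those furthest apart in normalized counts were SMIM11B (552 and 60.6 in controls A and C), NCKAP1 (34.6 and 276), KBTBD11 (34 and 269), FKBPL (376 and 72.5), DNM1P47 (53.0 and 253), HSD17B8 (412 and 128), AC087632.1 (686 and 239) and ARPIN-AP3S2 (66.9 and 187). None of these belongs to a gene group described below. Among the 274 genes of the pathway and stage lists with a mean of at least 100 the largest difference was 1.63-fold, and the beta joining segment TRBJ1-5, outside those lists, lay further apart at 336 and 188 normalized counts. The median difference was 1.62-fold for genes under the floor and 1.05-fold for genes at 1000 normalized counts or more. There were 2 samples of 1 condition, so no test was made, and all statements are levels and orders with the value in each sample.

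The 4 highest levels of all genes were those of the mitochondrially encoded respiratory genes MT-CO1, MT-CO3, MT-CO2 and MT-ATP6. The most abundant nuclear transcripts were those of protein synthesis, the cytoskeleton and chromatin, with IGFBP2, which encodes a secreted protein, among them. Mitochondrially encoded genes took 2.92% of normalized counts and the 84 measured cytosolic ribosomal protein genes 5.82%. With ribosomal protein genes and pseudogenes left out, the highest nuclear length-scaled level was that of PTMA, the acidic nuclear protein prothymosin alpha (6812). It was followed by the translation elongation factor EEF1A1 (5635), the actin-binding peptide TMSB4X (5134), the actin gene ACTB (4758), the tubulin gene TUBA1B (4149.7) and the actin gene ACTG1 (3683). IGFBP2, a secreted protein that binds insulin-like growth factors, came next at a level of 3510.3, with 73518 and 77553 normalized counts in controls A and C and rank 22 of all genes. It lay above the glycolytic genes ENO1 (3398) and GAPDH (3393), and IGF1R, the receptor for the factors that it binds, was at 16.8. TMSB10 (3219.7), STMN1 (2884), TUBB (2661), EEF1G (2511), UBB (2321) and HMGN2 (2266) completed the 15 highest. STMN1 destabilises microtubules, TUBB is a beta-tubulin, UBB encodes ubiquitin and HMGN2 binds nucleosomes. Most of these genes have near-identical copies or pseudogenes, so that their levels are uncertain to the extent that reads were shared.

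**Figure D1:**
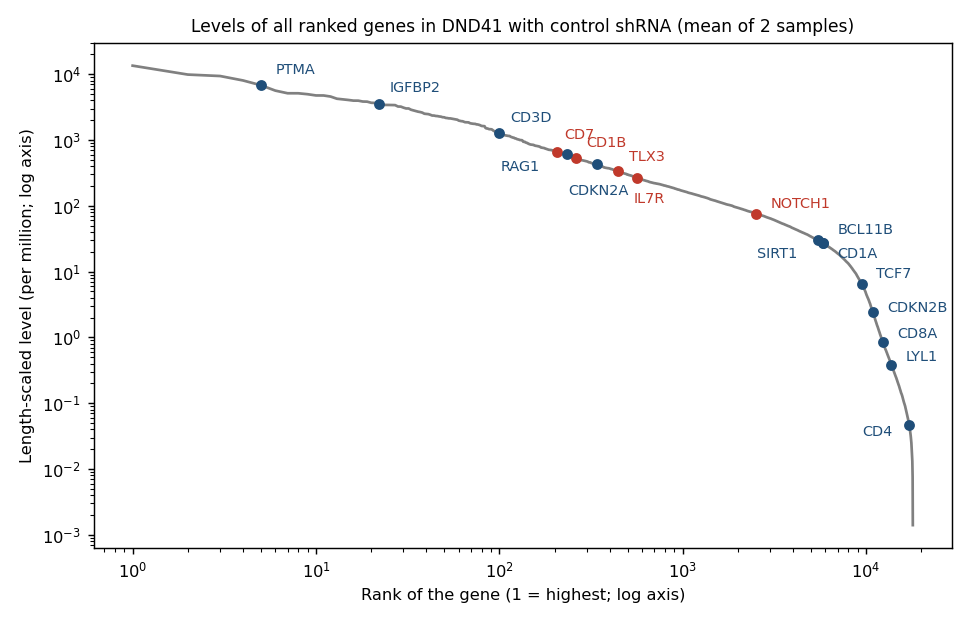
Length-scaled level (log axis, per 1000000, mean of controls A and C) against rank (log axis) for all ranked genes, with the 5 label markers in red and other described genes in blue. CD7, CD1B, TLX3 and IL7R lie between ranks 206 and 562, NOTCH1 lies at rank 2517, and LYL1 and CD4 lie on the steep end of the curve.

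All 5 genes named beforehand as markers of this line lay in the top 25%. They were chosen with earlier results of these data known, so their levels are a description and no test of identity. CD7, an immunoglobulin superfamily protein of T and NK cells (chromosome 17, 82314868 to 82317602, GRCh38), was at 12233 and 13298 normalized counts in controls A and C, a level of 666 and rank 206. CD1B, a lipid antigen presenting molecule of cortical thymocytes (chromosome 1, 158327951 to 158331531), was at 10971 and 11286 normalized counts, a level of 534 and rank 261. TLX3, a homeobox transcription factor with its normal role in neural development (chromosome 5, 171309284 to 171312134), was at 7428 and 7498 normalized counts, a level of 334 and rank 446. The order by level was the same in both samples, with CD7 above CD1B, TLX3, IL7R and NOTCH1. IL7R, the receptor chain for the T-cell growth factor interleukin 7 (chromosome 5, 35852695 to 35879603), was at 18162 and 18796 normalized counts, a level of 267 and rank 562. NOTCH1 itself (chromosome 9, 136494433 to 136545786) was at 10751 and 10283 normalized counts, a level of 75.6 and rank 2517. In normalized counts without length, IL7R stood first and TLX3 last of the 5. The NOTCH1 level rested on a principal transcript of 9306 bases and was 397 with the median length of its annotated transcripts, 743 bases, where the order became IL7R, NOTCH1, CD7, CD1B and TLX3.

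The lists of genes that mark T cells and their stages lay at very different heights. The medians ran from the 98.7th percentile of level for 18 housekeeping genes down to the 9.54th for 11 markers of liver, muscle, nerve and pancreas. Surface and signalling genes of all T cells had their median at the 75.6th percentile, cortical thymocyte genes at the 67.7th, mature T cell genes at the 38.4th and early progenitor genes at the 11.8th. The median over protein-coding genes was the 56.0th percentile.

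**Figure D2:**
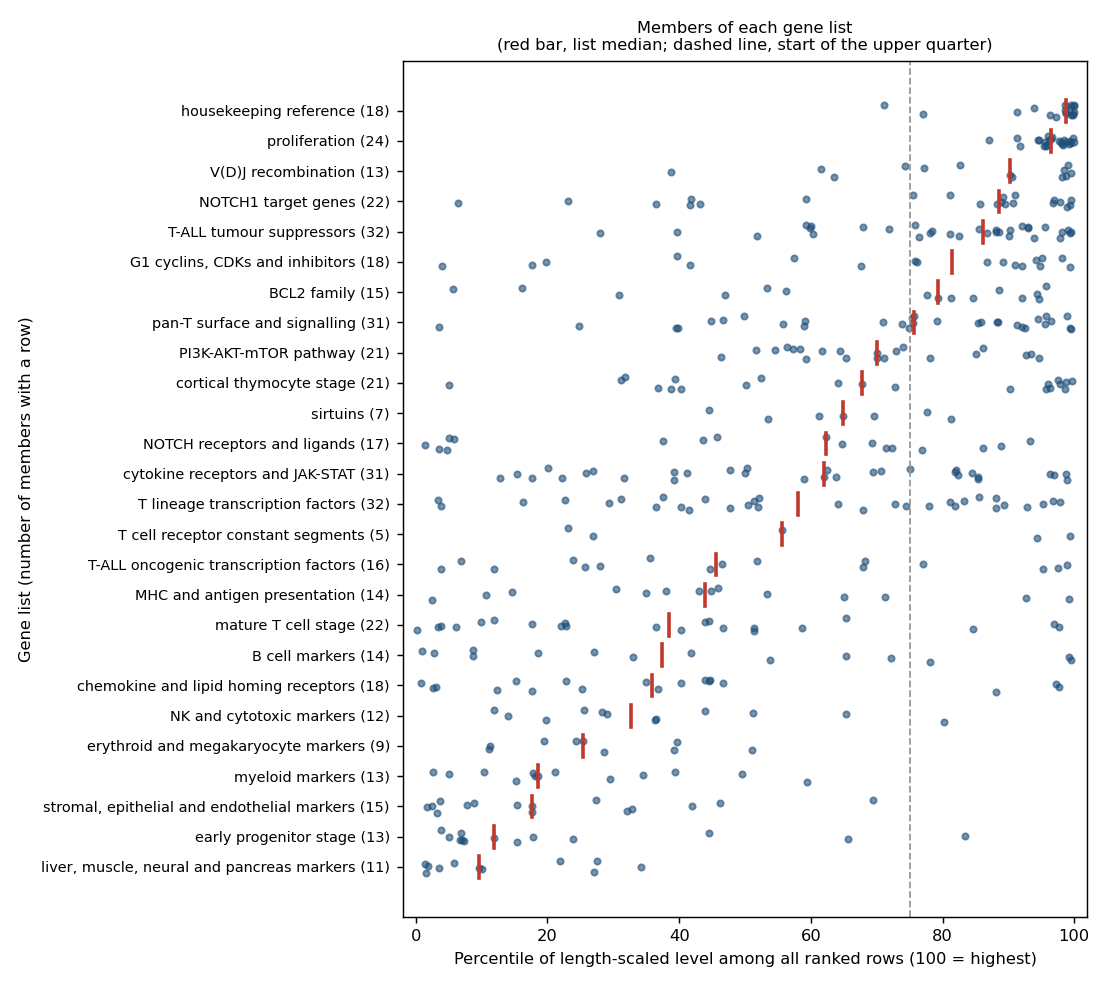
Percentile of length-scaled level (100 is the highest of all ranked genes) for each measured member of the 26 gene lists, 1 point a gene, with the median of each list as a red bar and the start of the top 25% dashed. Proliferation genes all lie to the right of the dashed line, the T cell lists spread over the whole range, and the lists of myeloid, erythroid, stromal and organ genes lie wholly to its left.

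The T lineage was seen in the CD3 chains and the proximal T-cell receptor kinases, while several other T cell surface genes were low. Of 31 measured genes of T cell surface and signalling, 10 lay in the top 10% and 18 in the top 25%, and 1 was under the floor. CD3D and CD3E, the signalling chains of the T-cell receptor on chromosome 11, were at 16043 and 16676 and at 24188 and 26148 normalized counts in controls A and C, with levels of 1271 and 1087. Their partners CD3G (206) and the zeta chain CD247 (202) stood lower by level, near the kinases ZAP70 (235), LCK (167) and FYN (132). The adhesion receptor CD96 (124), the adaptor SIT1 (115), TRAT1 (89.5), SH2D1A (88.9) and the sialophorin gene SPN (72.5) were also in the top 25%. The phosphatase PTPRC, the common leukocyte antigen, was just under it at 37. The adaptor LAT, which links ZAP70 to its downstream signals, stood at 16.4, with 368 and 347 normalized counts. The co-stimulatory receptors CD27 (13.4) and CD28 (5.93) were lower still.

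The adhesion receptor CD2, often used as a pan-T marker, was at 56.2 and 63.1 normalized counts, a level of 2.48 and rank 10861. CD6, another T cell surface receptor, was at 27.8 and 13.1 normalized counts and a level of 0.423. CD52, a small glycoprotein of lymphocytes, was at 17.3 and 15.6 normalized counts. TXK, a tyrosine kinase of T cells, was under the floor at 3.08 and 0. CD5, which completes the list, was not analysed here. Thus CD7 and the CD3 chains were in the top 10% while CD2 and CD6 lay below the median of all genes in both samples.

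**Figure D3:**
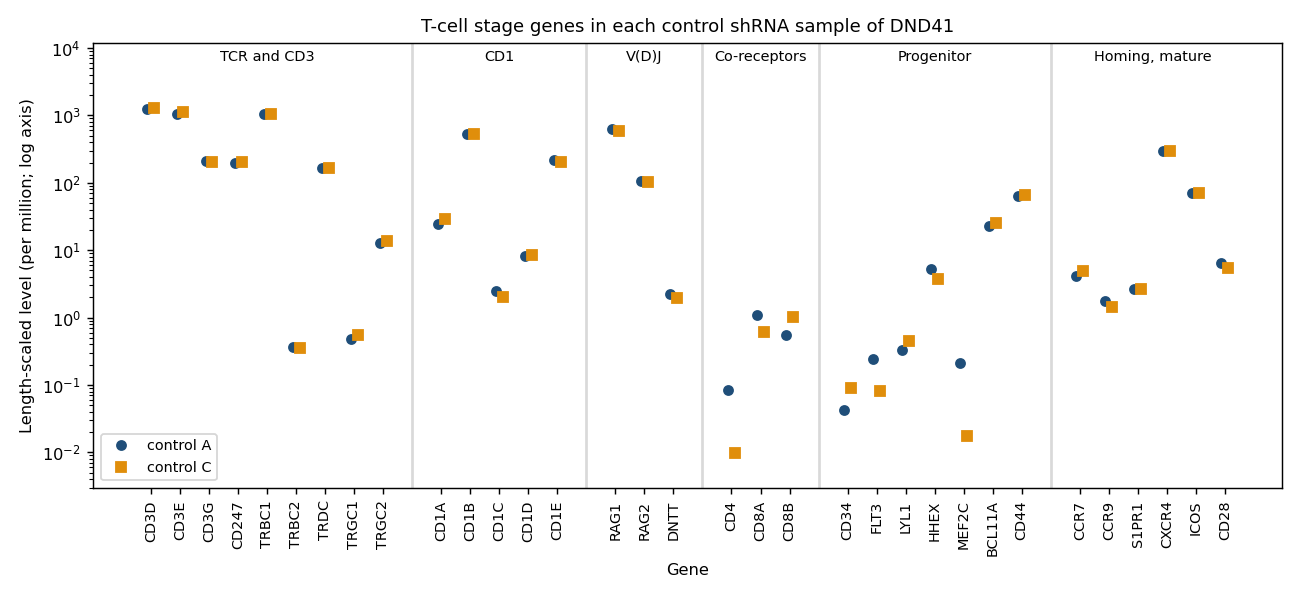
Length-scaled level (log axis, per 1000000) of genes of the T-cell receptor, CD1, V(D)J recombination, co-receptor, progenitor and mature stage groups, with control A as circles and control C as squares. The samples lie close together for CD3D, TRBC1, CD1B and RAG1, all above 100, and apart for the genes near the bottom, such as CD4 and MEF2C.

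T-cell receptor genes are assembled from V, D and J segments joined to a constant segment, first at the delta, gamma and beta loci and last at the alpha locus. The beta constant segment TRBC1 (chromosome 7, 142791694 to 142793368) was at 11967 and 12189.5 normalized counts, a level of 1063 and rank 121. Its downstream copy TRBC2 was under the floor at 4.06 and 4.09, and since the copies are near-identical, how their reads were divided is not known from these values. The delta constant segment TRDC was at 1735 and 1832 normalized counts and a level of 166. The gamma segments TRGC2 and TRGC1 were at levels of 13.2 and 0.514, and they too share sequence. The alpha constant segment was not analysed here.

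Few variable segments carried most of the signal at these loci. Of 11 measured beta variable segments 8 were under the floor, and TRBV7-2 (382 and 405 normalized counts in controls A and C) and TRBV6-2 (356 and 390), which has near-identical relatives, were highest. TRBV7-2 alone took 44.8% of the beta variable counts in control A and 44.6% in control C. The delta variable segment TRDV1 was at 597 and 705 normalized counts, against 3.05 and 1.04 for TRDV3. All 4 measured alpha variable segments, TRAV18, TRAV19, TRAV22 and TRAV30, were under the floor. Among the 9 gamma variable segments TRGV4 (112 and 99.4) and TRGV5 (101 and 103) were highest. The beta joining segments differed between the samples in a common direction. All 12 were higher in control A than in control C, with sums of 1213 and 744 normalized counts, led by TRBJ1-4 (339 and 211) and TRBJ1-5 (336 and 188). These segments are under 100 bases long. All 15 genes with models that short and a mean of at least 10 normalized counts were higher in control A, by a median of 1.52-fold. The 15 include all but 1 of the 12 beta joining segments and the delta joining segment TRDJ3, so they are not a separate set. In longer classes the median ratio of the samples was 0.964 to 1.0. Whether length explains the difference was not tested.

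Cortical thymocyte genes covered a wide range, with 9 of 21 measured members in the top 10% and the others below the top 25%. With median transcript lengths or without length correction, 10 members lay in the top 25%. CD99, a surface glycoprotein abundant on immature T cells, was highest at a level of 1929 (36437 and 38041 normalized counts). CD1B was followed within its family by CD1E (4648 and 4417 normalized counts, level 208), which encodes an intracellular lipid transfer protein. CD1A, the classical marker of the cortical stage, stood well below both at 766 and 931 normalized counts and a level of 27.1. CD1D (8.30), which presents lipids to NKT cells, and CD1C (2.27) were lower. The order of the 5 CD1 genes on chromosome 1 was therefore CD1B, CD1E, CD1A, CD1D and CD1C by level, and it was the same in each sample. The ectoenzyme CD38 (217), the sphingomyelinase SMPD3 (332) and the phosphoprotein ARPP21 (225) were in the top 10%. BCL6 (34.8), the chromatin organiser SATB1 (22.2, or the 89.7th percentile with median transcript lengths) and the water and glycerol channel AQP3 (10.2) were lower. The thymic homing receptor CCR9 was at 67.1 and 55.9 normalized counts and a level of 1.60, and it lies within LZTFL1 on the opposite strand, a gene with a level of 88.1. PTCRA, the surrogate alpha chain of the pre-T-cell receptor, was not analysed here.

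Both subunits of the recombinase lay in the top 10%, RAG2 only just inside it at the 90.3rd percentile. The enzyme that adds untemplated bases lay below the median of all genes. RAG1 (chromosome 11, 36510709 to 36593156) was at 60598 and 57887 normalized counts, a level of 604 and rank 234. RAG2, its partner subunit, was at 4413 and 4387 normalized counts and a level of 104, and its annotated span overlaps RAG1 on the opposite strand. DNTT, the terminal transferase that is a common marker of immature lymphoblasts, was at 65.7 and 58.3 normalized counts, a level of 2.11 and rank 11066. The rest of the V(D)J group makes the DNA ends or joins them, and 9 of all 13 members lay in the top 25%. HMGB2 (1667) and HMGB1 (805), DNA-bending cofactors of RAG, and the Ku subunits XRCC6 (485) and XRCC5 (412) were highest among them. The end-joining genes PAXX (106), XRCC4 (61.3) and PRKDC (43.9) were in the top 25%, and the hairpin-opening nuclease DCLRE1C (37.9), the ligase LIG4 (21.4) and NHEJ1 (19.1) were below it.

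The co-receptors that define the double-positive stage were low. CD8A was at 49.2 and 28 normalized counts and a level of 0.851, CD8B at 6.75 and 13, and CD4 at 3.88 and 0.461. CD8B and CD4 were under the floor in the mean. A value under the floor does not show that a gene is off in these data. Of 292 measured genes of families that every cell uses, 3 were under the floor. They were the respiratory complex I subunit NDUFA6, the mitochondrial ribosomal protein MRPL45 and PSMA8, a proteasome subunit of the testis.

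The early progenitor program was near the floor with few exceptions. Of 13 measured members 8 were under the floor, 0 lay in the top 10% and 1 in the top 25%, or 2 with median transcript lengths or no length correction. That member was CD44, a hyaluronan receptor that is also carried by activated T cells (5361 and 5704 normalized counts, level 64.5). BCL11A, a zinc-finger factor of progenitors and B cells, stood at 24.1, and HHEX, a homeobox factor, at 4.49. The stem cell antigen CD34 was at 5.16 and 11.2 normalized counts, the cytokine receptor FLT3 at 14 and 4.69, LYL1 at 7.16 and 10.2 and TAL1 at 6.19 and 3.06. MEF2C, a factor of early progenitor leukemia, was at 19.7 and 1.68 normalized counts and thus differed between the samples. The myeloid antigens CD33 (1.03 and 1.02) and ANPEP (0 and 6.76), PROM1 (6.0 and 1.55) and MEIS1 (1.92 and 2.97) were under the floor, and MPO was at 6.40 and 14. The genes KIT, LMO2, SPI1, CEBPA, GATA2, HOXA9 and NFE2 were not analysed here.

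Genes of mature T cells were mostly below the top 25%. Of 22 measured members 3 lay in the top 25% and 8 were under the floor. IL7R, also used by immature cells, was among the 3, and ICOS, an inducible co-stimulator, stood at 70.0. The exit receptor S1PR1 was at 115 and 116 normalized counts and a level of 2.66, and its activator KLF2, a transcription factor of quiescent T cells, was at 0.697 and 1.38. The lymph node receptor CCR7 was at 4.57 and the activation marker CD69 at 16.2. The checkpoint receptor PDCD1 was listed at 0 in both samples, and CTLA4, CD40LG, GZMA, IL4, IL2RA and ZBTB7B were under the floor. Of the 18 measured chemokine and lipid homing receptors 3 lay in the top 25%, among them CXCR4 (8239 and 8433 normalized counts, level 294), which holds thymocytes and leukemia cells to stroma, and S1PR4 (87.4). The receptors CCR1, CX3CR1, CCR3, CCR6 and XCR1 were under the floor.

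The transcription factors of the T lineage covered a wide range, with 12 of 32 measured in the top 25% and 3 under the floor. LEF1, an effector of WNT signalling, led at 16975 and 17312 normalized counts and a level of 374. Its relative TCF7, which shares its DNA target and acts at the earliest T cell stages, was at 327 and 273 normalized counts and a level of 6.59, so that LEF1 stood far above TCF7 in both samples. ETS1 (262), MYB (189.7) and the E protein TCF3 (137) followed, all of them activators of early T cell genes. IKZF1 (95.5), the E protein TCF12 (87.8), TOX (87.4), GATA3 (73.6), IKZF2 (63.9) and RUNX1 (55.3) were in the top 25%. BCL11B, the commitment factor and a frequent translocation partner in T-ALL, was at 3278 and 2896 normalized counts and a level of 27.3. The inhibitors of E proteins ID2 and ID3 were at 45.9 and 8.60. The factors of mature subsets were lower, with RUNX3 at 9.40, EOMES at 4.25, TBX21 at 1.52, ZBTB16 at 0.789 and FOXP3 at 0.338. ZBTB7B, which directs CD4 T cells, TOX2 and KLF2 were under the floor.

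Among the transcription factors that are expressed out of place in T-ALL, TLX3 stood alone in the top 10% beside MYC and MYB, which normal thymocytes also express. Of 16 measured members 4 lay in the top 25% and 4 under the floor. MYC, a driver of growth downstream of NOTCH1, was at 12185 and 14681 normalized counts, a level of 658 and rank 208, and MYB at 9047 and 9687 and 189.7. The TLX3 relative TLX2 was at 16.8 and 12.5 normalized counts and a level of 0.460. TAL1 and LYL1, drivers of other T-ALL groups, and TAL2 (8.11 and 3.07 normalized counts) were under the floor, as was MEIS1. The ETS factor FLI1 was at 43.5, ETV6 at 9.69 and ZEB2 at 4.67. TLX1, LMO1, LMO2, LMO3, NKX2-1, NKX2-5 and HOXA9 were not analysed here. Of the HOXA genes 8 were measured, and HOXA7 was the highest at 779 and 895 normalized counts and a level of 27.7. HOXA6 (109 and 88.8 normalized counts), HOXA5 (172 and 114), HOXA3 (117 and 115), HOXA13 (96.6 and 109.9) and HOXA4 (23.7 and 26.7) were lower, and HOXA2 was under the floor. None of the 8 reached the top 25%.

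TLX3 lies on chromosome 5 and is brought next to elements of BCL11B on chromosome 14 by a recurrent translocation in T-ALL. Whether the locus is rearranged cannot be read from expression values, and the levels of the genes around it are given as a description. Within 1 Mb of the TLX3 start 10 genes were measured, TLX3 included. RANBP17, a nuclear transport receptor whose span ends just before TLX3, was at 84.8 and 88.6 normalized counts and a level of 1.26. On the other side FGF18, a growth factor gene, was under the floor at 4.11 and 6.12, as was the pseudogene RPSAP71 (4.07 and 1.02). NPM1, the abundant nucleolar protein whose gene starts 77.8 kb beyond that of TLX3, was at 51462 and 55556 normalized counts and a level of 2035. TLX3 and NPM1 were thus far above RANBP17, RPSAP71 and FGF18, the nearest measured genes before, between and beyond them. Farther out stood GABRP (9.71), KCNMB1 (0.519), FBXW11 (34.2), STK10 (31.2) and UBTD2 (29.8).

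**Figure D4:**
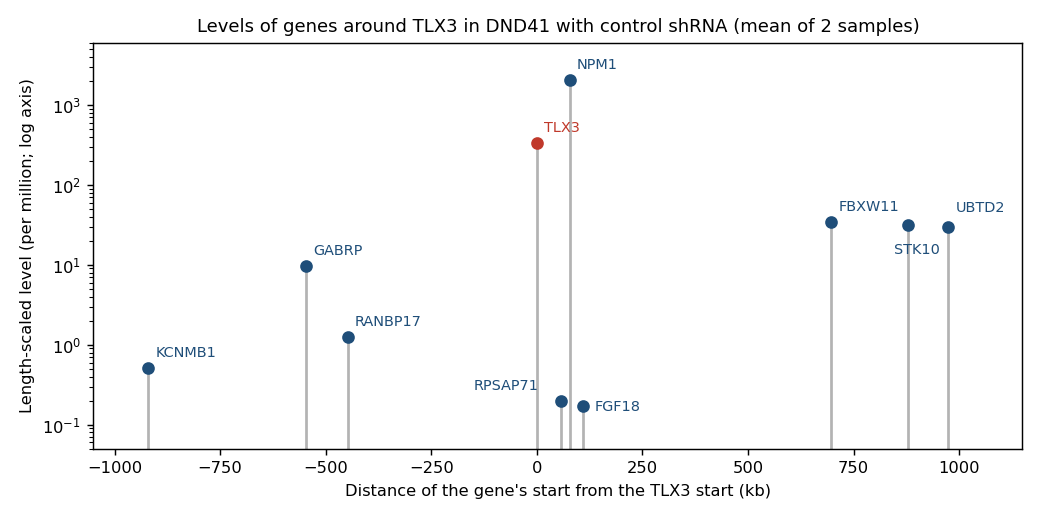
Length-scaled level (log axis, per 1000000, mean of controls A and C) of the 10 measured genes within 1 Mb of TLX3, at the distance of each gene's start from that of TLX3 in kb. TLX3 (334) and NPM1 (2035) stand above RANBP17 (1.26), FGF18 (0.172) and RPSAP71 (0.197).

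The sequences before the RefSeq starts of TLX3, IL7R, CD3D, RAG1 and NOTCH1, all high genes, are shown. They differ in how many CpG dinucleotides, the sites of DNA methylation, they hold, and which starts these cells used was not tested. Each is the 250 bases before the RefSeq start on GRCh38.p14, read 5′ to 3′ on the gene's strand, with each CpG in capitals. The TLX3 window holds 10 CpG, that of IL7R 0, that of CD3D 4, that of RAG1 25 and that of NOTCH1 33.
TLX3: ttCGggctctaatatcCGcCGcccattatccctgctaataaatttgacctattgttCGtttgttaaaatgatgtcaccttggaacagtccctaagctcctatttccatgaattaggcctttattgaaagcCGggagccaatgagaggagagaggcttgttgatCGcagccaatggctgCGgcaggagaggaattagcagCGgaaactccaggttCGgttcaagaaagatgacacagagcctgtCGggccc
IL7R: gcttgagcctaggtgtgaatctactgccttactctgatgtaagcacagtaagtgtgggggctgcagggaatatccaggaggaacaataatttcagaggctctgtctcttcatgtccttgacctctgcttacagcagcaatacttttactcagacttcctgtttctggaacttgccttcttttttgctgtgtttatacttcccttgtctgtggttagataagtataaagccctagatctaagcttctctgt
CD3D: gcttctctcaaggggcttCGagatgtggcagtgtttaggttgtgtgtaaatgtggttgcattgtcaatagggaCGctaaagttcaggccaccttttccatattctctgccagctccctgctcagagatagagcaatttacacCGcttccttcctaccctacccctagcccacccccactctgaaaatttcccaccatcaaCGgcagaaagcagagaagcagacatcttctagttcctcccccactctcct
RAG1: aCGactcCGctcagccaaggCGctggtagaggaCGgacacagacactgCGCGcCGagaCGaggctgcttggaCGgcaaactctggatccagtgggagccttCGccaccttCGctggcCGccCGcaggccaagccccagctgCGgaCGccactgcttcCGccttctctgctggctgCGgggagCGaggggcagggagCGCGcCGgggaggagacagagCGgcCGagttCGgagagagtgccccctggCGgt
NOTCH1: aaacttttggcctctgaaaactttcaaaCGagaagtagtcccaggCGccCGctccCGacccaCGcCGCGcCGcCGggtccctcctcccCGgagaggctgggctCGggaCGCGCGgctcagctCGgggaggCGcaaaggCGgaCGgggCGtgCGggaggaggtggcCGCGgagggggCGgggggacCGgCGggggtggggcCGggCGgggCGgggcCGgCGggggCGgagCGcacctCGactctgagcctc

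The windows lie at chr5:171308998-171309247 on the plus strand, chr5:35856641-35856890 on the plus strand, chr11:118342706-118342955 on the minus strand, chr11:36510103-36510352 on the plus strand and chr9:136546049-136546298 on the minus strand. GENCODE gives IL7R and CD3D spans that begin before these RefSeq starts. The RAG1 window lies before a long GENCODE span, 36510709 to 36593156, and any start within that span has no window here. On either strand the TLX3 window holds CCAAT, the letters bound by NF-Y, and GGGCGG, those bound by SP1. The IL7R window holds TATAAA, the usual core of a TATA box. It also holds AGATAA, letters bound by GATA factors such as GATA3. The letters bound by RUNX factors, TGTGGT, are in the windows of both IL7R and CD3D. Those of RAG1 and NOTCH1 hold GGGCGG. A match is a description of the letters and not of a bound site.

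Over the 11891 protein-coding genes with a promoter entry, levels differed between classes of CpG content. Of the 1541 promoters with fewer than 5 CpG, 9.99% belonged to genes in the top 25% and 38.4% to genes under the floor. Of the 3946 with 15 to 24 CpG, 38.2% were in the top 25% and 9.23% under the floor, and the 3942 with 25 or more were close to these at 36.5% and 9.31%. Of the 22 promoters of T cell surface and signalling genes 15 held fewer than 5 CpG, and 7 of these 15 genes were in the top 25%. The median was 3 CpG in that group, 6 in the cortical thymocyte group, 24 in the T lineage transcription factors, 25 in the proliferation genes and 20 in all coding promoters. Among genes in the top 25% 4.18% had fewer than 5 CpG. TGTGGT was in 8 of the 22 T cell surface and signalling promoters (36.4%) and in 8.28% of all, and CCAAT was in 15 of 19 proliferation promoters (78.9%) and in 34.7% of all. GGGCGG was in 69.2% of promoters of genes in the top 25% and 47.1% of those under the floor, and TATAAA in 4.72% and 12%. CD1B and CD7 had no promoter entry.

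**Figure D5:**
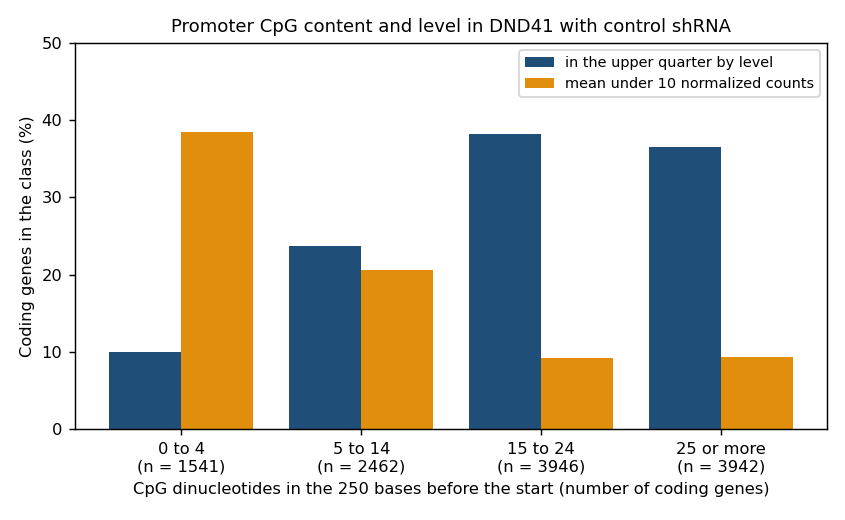
Percent of protein-coding genes in the top 25% by level (blue) and under a mean of 10 normalized counts (orange) in 4 classes of CpG number in the 250 bases before the RefSeq start. The share in the top 25% goes from 9.99% below 5 CpG to 38.2% at 15 to 24 CpG, and the share under the floor from 38.4% to 9.23%.

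T-ALL tumour suppressor genes lay above the floor, and CDKN2A, which is often deleted in T-ALL, was in the top 10%. Of 32 measured members 23 lay in the top 25%, 12 in the top 10% and 0 under the floor. The list is led by the ribosomal protein genes RPL5 (1381), RPL10 (1198) and RPL22 (739), and their many pseudogenes can share reads with them. CDKN2A, which encodes the CDK inhibitor p16 and the tumour suppressor ARF (chromosome 9, 21967753 to 21995301), was at 7928 and 8386 normalized counts, a level of 425 and rank 342. A count per gene does not tell transcripts of p16 and ARF apart. The CDKN2A neighbour CDKN2B, another CDK inhibitor gene 14.1 kb away, was at 150.1 and 129.6 normalized counts and a level of 2.39. MTAP, a methylthioadenosine phosphorylase often lost together with CDKN2A, was at 4056 and 3624 normalized counts and a level of 42. Of the 12 measured genes within 1 Mb of CDKN2A, 3 were under the floor, and these were the interferon genes IFNB1 and IFNW1 and the pseudogene IFNA20P. The ubiquitin ligase adaptor KLHL9 (38.1) and FOCAD (20.2) were near MTAP by level, and HACD4 (0.467) and the pseudogenes TUBB8P1 (1.13) and UBA52P6 (4.19) were far lower. AL359922.1 (level 5.80) overlaps CDKN2A on the opposite strand, and the use of strand in quantification is not stated in the labels.

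Other suppressors were grouped by what they do. Of the Polycomb genes, EZH2 stood at 203, SUZ12 at 104 and EED at 61.1. PHF6, a chromatin reader, was at 103, CTCF at 90.7, ASXL1 at 87.3 and KDM6A, a histone demethylase, at 17.5. FBXW7, the ligase that degrades NOTCH1 and MYC, was at 2272 and 2292 normalized counts and a level of 40.8. RB1 was at 80.1 and the CDK inhibitor CDKN1B at 125. TET2, a DNA demethylation enzyme, was the lowest of the list at 97 and 77.5 normalized counts and a level of 0.575.

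Genes of the NOTCH pathway were uneven. NOTCH3, NOTCH1 and the gamma-secretase genes APH1A and PSENEN lay in the top 25%, while ligands were low. Of 17 measured receptors, ligands and partners 4 (23.5%) lay in the top 25%, or 7 with median transcript lengths, and 5 (29.4%) under the floor. Among protein-coding genes these shares were 28.7% and 17.3%, so the group as a whole did not stand above the background. NOTCH3 (chromosome 19, 15159038 to 15200981) was at 12338 and 11630.1 normalized counts and a level of 92.5, above NOTCH1, NOTCH2 (22.9) and NOTCH4, which was under the floor at 1.05 and 2.28. The order NOTCH3, NOTCH1, NOTCH2 and NOTCH4 held in each sample. Among the ligands JAG1 (2.09 and 7.56 normalized counts), JAG2 (8.01 and 0.361) and DLL4 (1.49 and 2.21) were under the floor, and DLL1 was at 88.1 and 79.5 and a level of 1.77. Its span overlaps FAM120B on the opposite strand. The gamma-secretase genes APH1A (144), PSENEN (43.2) and NCSTN (34.2) and the protease ADAM10 (29.3), which makes the first activating cut, were measured at moderate to high levels. RBPJ, the DNA-binding partner of cleaved NOTCH, was at 32.5. Its co-activators MAML2 (5.37) and MAML3 (4.10) were lower, and MAML1 was under the floor at 3.07 and 4.64.

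Of 22 measured NOTCH1 target genes 15 (68.2%) lay in the top 25%, against 28.7% of protein-coding genes, and 1 under the floor. CCND3, the cyclin that NOTCH1 supports in thymocytes, was at 31599 and 32356 normalized counts and a level of 1026, and DTX1, a NOTCH-induced ubiquitin ligase, at 18256 and 20016 and 370.3. HES1, the classical repressor among NOTCH targets, was at 2203 and 2402 normalized counts and a level of 97.5. Its relatives were lower, with HES4 at 3.88, HES6 at 3.16 and HEY1 at 0.358, and NRARP, a feedback inhibitor of NOTCH, was under the floor at 2.06 and 1.02 normalized counts. Other targets in the top 25% were GIMAP5 (108), a lymphocyte GTPase, TRIB2 (74.1), a pseudokinase, SHQ1 (40.2), a factor of small nucleolar RNA assembly, and TASP1 (95.2), a protease. HES5, HEY2, HEYL and DLL3 were not analysed here. Several members of this list, such as CD3D, MYC and ETS1, are also expressed in T cells without NOTCH activation.

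The highest cytokine signalling genes were CISH, a feedback inhibitor of STAT5, and both chains of the interleukin 7 receptor. Of 31 measured members 11 lay in the top 25% and 2 under the floor. IL2RG, the common gamma chain that pairs with IL7R, was at 13088 and 13979 normalized counts and a level of 589.9. CISH, itself induced by STAT5, was at 19598 and 20887 normalized counts and a level of 663, and it overlaps MAPKAPK3 on the opposite strand. SOCS2 (228), also STAT5-induced, and SOCS1 (72.5) followed. JAK1, the kinase bound to IL7R, was at 60.4, TYK2 at 72.4 and JAK3, the kinase bound to IL2RG, at 255 and 226 normalized counts and a level of 2.96. STAT5B (58.6) stood above STAT5A (8.22) in both samples. The other chains that pair with IL2RG were low, with IL4R at 21.9, IL21R at 0.837, IL2RB at 0.520 and IL9R at 0.466, and IL2RA and FLT3 were under the floor. PDGFRB, a receptor kinase best known from pericytes and fibroblasts, was at 2456 and 2579 normalized counts and a level of 29.4.

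All 21 genes of the PI3K-AKT-mTOR pathway were above the floor. Of them 6 (28.6%) lay in the top 25%, close to the 28.7% of protein-coding genes. The number was 14 with median transcript lengths and 15 without length correction. AKT1 (172), the catalytic subunit of leukocytes PIK3CD (145) and the mTOR activator RHEB (134) were in the top 10%. Of the catalytic subunits PIK3CD stood above PIK3CG (22.6), PIK3CA (15.8) and PIK3CB (12.2). PIK3CD overlaps CLSTN1 on the opposite strand. The negative regulator PIK3IP1 was the lowest of the pathway at 5.76.

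The cells carried the transcripts of active division. All 24 proliferation genes lay in the top 25% and 23 in the top 10%. TUBA1B, STMN1 and HMGB2 led, followed by the replication clamp PCNA (1106), the thymidylate synthase TYMS (871), the helicase subunit MCM7 (624) and the topoisomerase TOP2A (485). MKI67, the proliferation antigen, was at 22931 and 20637 normalized counts and a level of 115. The lowest of the list was CENPF, a kinetochore protein, at 81.3. Of 18 cyclins, kinases and inhibitors of G1 phase 11 lay in the top 25%. CCND3 stood far above the other D-type cyclins, since CCND2 was at 32.6 and 17.2 normalized counts and CCND1 at 11.5 and 15.6. Their kinases CDK4 (179) and CDK6 (112) and the kinase CDK2 (186) were in the top 10%. The inhibitor CDKN2C, which binds CDK4 and CDK6, was at 161, CDKN1A, another CDK inhibitor, at 3.13, and CDKN1C was under the floor.

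Apoptosis regulators of the BCL2 family were led by an inhibitor. BCL2L1, which encodes BCL-XL, was at 7975 and 8219 normalized counts and a level of 207, above MCL1 (123) and BCL2 (8263 and 7195 normalized counts, level 69.4). Of the effectors BAX (166) stood above BAK1 (45.2). Among the BH3-only members PMAIP1 (171) and BCL2L11 (90.6), which encodes BIM, stood above BBC3 (13.7), and BIK and HRK were under the floor. In this family 9 of 15 measured members lay in the top 25%. BOK was at 2.99 and 58.5 normalized counts and thus differed between the samples.

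SIRT1, the NAD-dependent deacetylase that the hairpins of the other samples target, was at 1745 and 1919.5 normalized counts in controls A and C, a level of 29.9 and rank 5481 (chromosome 10, 67884669 to 67918390). Among the 7 sirtuins SIRT7 (56), a nucleolar deacetylase, and SIRT6 (45), a chromatin deacylase, stood higher and lay in the top 25%, where other length rules left 1 or 0 of the 7. SIRT2 (23.1), the mitochondrial SIRT3 (18.9) and SIRT5 (11.2), and SIRT4 (4.53) stood lower. SIRT7 shares its span with MAFG on the same strand.

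Markers of other blood lineages were mostly low, with a few B lineage genes as the clear exception. Of 14 measured B cell markers 3 (21.4%) lay in the top 25% and 5 (35.7%) under the floor, against 28.7% and 17.3% of protein-coding genes. CD79A, a signalling chain of the B cell receptor (chromosome 19, 41877120 to 41881372), was at 23989 and 25708 normalized counts, a level of 1321 and rank 98, above CD3E. IGLL1, the surrogate light chain of pre-B cells, was at 10799.7 and 11733 normalized counts, a level of 836 and rank 154. The kinase BLK stood at 46.4, the co-activator POU2AF1 at 33.9, CD79B at 23.8 and EBF1, a B lineage transcription factor, at 902 and 897 normalized counts and a level of 11.5. PAX5, the factor of B lineage commitment, was under the floor at 1.34 and 1.32 normalized counts, as were CD22, BTK, VPREB3 and FCRLA. CD79A and IGLL1 were thus in the top 10% while the defining factor PAX5 was near 0, and which cells carried these transcripts cannot be read from bulk RNA. IGLL1 shares sequence with the lambda constant segments, so that its level is uncertain. MS4A1 and VPREB1 were not analysed here.

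None of the 13 myeloid markers lay in the top 25%, and 7 were under the floor. The highest was CTSG, a granule protease of neutrophil precursors, at 228 and 219 normalized counts and a level of 16.9, followed by the lysosomal protein CD68 (7.85). CD14, LYZ, ITGAM and CSF1R were at most 10.8 normalized counts in either sample. Of 12 measured NK and cytotoxic markers 1 lay in the top 25%, NKG7, a granule membrane protein, at 654 and 675 normalized counts and a level of 52.7, and it fell to the 55.9th percentile without length correction. The pore protein PRF1 stood at 23.6 and the SLAM receptor CD244 at 9.33, while GNLY, KLRC1, KLRB1 and GZMA were under the floor. Of the 9 erythroid and megakaryocyte markers 0 lay in the top 25%, and EPOR, the erythropoietin receptor, was highest at 9.03. HBB was at 2.71 and 6.41 normalized counts. Apart from PDGFRB, no stromal, epithelial or endothelial marker exceeded a level of 5.66, that of the smooth muscle actin ACTA2, and 8 of 15 were under the floor. Of the 11 markers of liver, muscle, nerve and pancreas 8 were under the floor, and TTR, the transthyretin of liver and choroid plexus, was the highest at 19.3 and 13.3 normalized counts.

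At the low end 4176 of 18063 genes (23.1%) were under the floor and 86 were listed at 0 in both samples. Of 2409 pseudogenes 60.0% were under the floor, and of 15538 protein-coding genes 17.3%. Protein-coding genes differed by chromosome, from 19.9% in the top 25% on chromosome 15 to 37.8% on chromosome 20.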

How the data were processed

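Total RNA was sequenced from libraries that keep the strand, per the labels. The deposited signal is a normalized count for each symbol, which the authors made with kallisto 0.44.0 and DESeq on hg38, as listed in the submitters' processing notes. How transcripts were annotated, summed to genes and filtered, and whether strand was used, is not given in the sources. Of 18133 symbols, 18020 matched GENCODE release 29 by name and 43 by an older name, and 70 did not match. Transcript length was that of the annotated principal transcript (the longest where several were tagged, and the longest of all where none was), with a principal transcript for 15610 genes. Normalized counts were divided by this length in kilobases, scaled to 1000000 per sample and averaged over the 2 control samples, with python 3.11.15, pandas 2.3.3 and numpy 2.4.6, and figures were drawn with matplotlib 3.10.9. Differences between the samples were taken on log2(value + 1). The low values lay within 0.02 of a whole multiple of their step in 37.1% of cases in control A and 43.4% in control C. Whole reads could therefore not be recovered. Sequencing depth is not known, since sums of normalized counts do not give it. Promoter sequences came from RefSeq, with 1 window kept for each symbol, and were matched by symbol for 11891 of 15538 protein-coding genes. The members and the 26 gene lists were chosen with earlier results of these data known. Named genes were the label markers, SIRT1, the 15 highest nuclear genes, the 3 highest members of each list and its members under the floor, all members of the cortical, CD1, TLX, HOXA, NOTCH receptor and T-cell receptor constant groups, neighbours of TLX3 and CDKN2A, the 8 genes furthest apart between the samples, and further list members as description. A few listed genes are not reported here; they remain in the counts. The alternatives were other transcript lengths, each sample alone, other sets of genes ranked, another pseudocount and a lower minimum. The steps were run on simulated counts made with the same transcript lengths, which checks the calculation and not the choice of length or the sharing of reads.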

Additional observations from a re-analysis of the deposited data

How the results depend on the processing

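No paired analysis was possible because no test was made and the 2 samples belong to 1 condition. All 5 label markers stayed in the top 25% under the 7 alternatives tried. With the longest transcript as length, 1 sirtuin was in the top 25%. With the median transcript length the top 25% held 2 early progenitor genes, 7 NOTCH receptors, ligands and partners, 14 PI3K pathway genes, 1 sirtuin, 0 NK and 1 stromal marker. Without length correction it held 2 early progenitor genes, 1 T-cell receptor constant segment, 15 PI3K pathway genes, 0 sirtuins, 0 NK and 1 stromal marker, and 81 genes reached a level of 1000 in place of 130. With protein-coding genes alone, 2682 were under the floor and 1 sirtuin was in the top 25%, and with genes of at least 10 normalized counts alone it held 1 sirtuin and 0 NK markers. At a minimum mean of 10 in place of 100, 469 genes differed at least 2-fold between the samples. The cause of these shifts was not tested beyond the change of setting itself. The remaining 215 of 234 values of the main results changed by at most 1.5 times, including those of each sample alone. Some of these could not change with length, such as the number of genes under the floor. Among the further values outside the main results, 557 were marked as moved and 259 as the same. Positions of single genes depended most on the median length, where SATB1 moved by 25.7 percentile points to the 89.7th. Levels of genes under the floor rest on few reads, and their order was not read.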

Other observations

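Antigen presentation genes were uneven. Of 14 measured members of that group 2 lay in the top 25%, namely B2M, the light chain shared by class I molecules, and HLA-E, a ligand of NK cell receptors. B2M was at 22120.0 and 24119 normalized counts in controls A and C and HLA-E at 5259.5 and 5254. The classical class I gene HLA-B was at 85.5 and 90.6 and HLA-C at 27.5 and 59.0. The peptide transporter genes TAP1 (409 and 562) and TAP2 (950.2 and 798) and their partner TAPBP (938 and 883) were higher in normalized counts. These class I genes vary between people, and how such reads were assigned to a reference transcript was not tested.

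A few other gene families held members above the floor, and those named here were chosen after their values were seen. HOXD13, a homeobox gene of limb and hindgut development, was at 1192 and 1295 normalized counts and a length-scaled level of 37.1, above HOXA7 at 27.7, while its neighbour HOXD12 was at 51.4 and 49.9 normalized counts and HOXD8 at 3.07 and 3.06. Of 137 measured olfactory receptor genes 71 were under the floor, and the highest level was 12.9 for OR10R2, at 188 and 201 normalized counts. Of 43 measured heavy chain variable segments of immunoglobulin 21 were under the floor, and IGHV1-3 was the highest at 142 and 160 normalized counts. Of the lymphocyte GTPases of the GIMAP family 4 of 7 measured were in the top 25%, with GIMAP2 at 3243 and 3500.5 normalized counts.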
